A study of Mus musculus with 24 samples.

Results

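The 10 genes described here, Csrnp1, Sertad1, Trib1, Midn, Fbxo33, Arl4d, Arl5b, Rasl11a, Coq10b and Apold1, are early response genes outside the Fos, Egr, Nr4a, Klf and Dusp families. They were taken by name from a table of 19661 genes, and all 10 were found and tested. RNA came from the dorsal hippocampus of 24 mice in 4 groups of 6, with a library for each mouse. The groups were trained Baf53b+/- mice, home cage Baf53b+/- mice, trained wild-type mice and home cage wild-type mice. Tissue of the trained mice was taken 30 minutes after a training session for object location memory, a task in which mice explore an arena and learn where objects stand. The Baf53b+/- mice carried a targeted allele of Actl6b, with the strain named as B6J.129S6-Actl6b<tm1Grc>, and the wild-type mice were C57BL/6J. Actl6b encodes BAF53b, a subunit of the neuronal BAF complex, which remodels chromatin. The genotypes therefore carry different strain names, and the allele cannot be told apart from any other DNA in which the strains differ. Home cage mice were the controls for training, so learning cannot be told apart from handling or exploration. The sources used here give no age.

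Early response genes are switched on within minutes of a stimulus because the transcription factors that act on them are already present in the cell. In the hippocampus, neuronal firing raises calcium and activates factors such as CREB, which binds the cAMP response element, and SRF, which binds the CArG box. The best known products are transcription factors such as Fos and Egr1 and the synaptic protein Arc, while most of the genes described here encode regulators of other cell processes. Csrnp1 encodes a nuclear protein of the cysteine- and serine-rich family, Sertad1 a transcriptional cofactor of cell cycle regulators, and Trib1 a pseudokinase that recruits a ubiquitin ligase. Midnolin, the product of Midn, carries nuclear proteins to the proteasome without ubiquitin, and Fbxo33 is a substrate receptor of an SCF ubiquitin ligase. Arl4d and Arl5b are small GTPases of the Arf-like group, Rasl11a is a small Ras-like GTPase, Coq10b binds coenzyme Q in mitochondria, and Apold1 was described as an early response gene of vascular endothelium.

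The sequences upstream of 4 of these genes are shown because they hold the letters of the cAMP response element in different forms. Each line gives the 250 bases before the annotated start in RefSeq (GRCm38.p6), 5′ to 3′ on the strand of the gene. The windows are chr11:101665291-101665540 for Arl4d, chr2:15055070-15055319 for Arl5b, chr1:55052520-55052769 for Coq10b and chr6:134981751-134982000 for Apold1, all on the plus strand. Capitals mark the full element TGACGTCA and its short form TGACG on either strand, which reads CGTCA on the opposite one.
Arl4d: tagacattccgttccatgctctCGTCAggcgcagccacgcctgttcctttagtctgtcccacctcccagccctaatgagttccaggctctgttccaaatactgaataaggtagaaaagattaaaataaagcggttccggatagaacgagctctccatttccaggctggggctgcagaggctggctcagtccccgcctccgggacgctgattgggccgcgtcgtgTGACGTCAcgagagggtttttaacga
Arl5b: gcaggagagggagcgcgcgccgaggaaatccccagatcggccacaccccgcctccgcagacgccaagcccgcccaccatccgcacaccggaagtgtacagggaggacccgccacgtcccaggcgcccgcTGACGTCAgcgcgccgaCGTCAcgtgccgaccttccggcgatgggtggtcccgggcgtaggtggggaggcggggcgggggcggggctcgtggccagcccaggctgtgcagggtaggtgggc
Coq10b: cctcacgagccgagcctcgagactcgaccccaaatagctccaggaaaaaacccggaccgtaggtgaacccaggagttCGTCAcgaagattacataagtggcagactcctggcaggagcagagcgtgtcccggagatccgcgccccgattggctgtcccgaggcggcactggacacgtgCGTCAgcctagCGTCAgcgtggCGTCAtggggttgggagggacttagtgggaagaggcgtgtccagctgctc
Apold1: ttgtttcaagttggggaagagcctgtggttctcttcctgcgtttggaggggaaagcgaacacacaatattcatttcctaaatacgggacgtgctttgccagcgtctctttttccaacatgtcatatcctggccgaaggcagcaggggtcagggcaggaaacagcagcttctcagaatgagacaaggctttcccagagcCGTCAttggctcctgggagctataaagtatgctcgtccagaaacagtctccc

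The full element stood 26 to 19 bases upstream of the start of Arl4d and 121 to 114 bases upstream of that of Arl5b. Windows were available for 9 of the 10 genes, all but Trib1, and 2 of the 9 held the full element. Over all genes with a window, 1.77% of 27025 held it, and among 32851 windows the share was 1.55%. The short form TGACG was found in 7 of the 9 genes, all but Sertad1 and Fbxo33, against 19.8% of all genes and 17.8% of all windows. Every full element contains the short form on both strands, so these counts overlap. Genes with more windows, such as Csrnp1 with 4, have more room for a match. Coq10b held the short form at 4 places, the nearest 50 to 46 bases upstream, and Apold1 at 1 place 52 to 48 bases upstream. Among the better known early genes listed for comparison, 6 of the 46 with a window held the full element and 29 the short form. Among the family relatives of the 10 genes, 0 of 12 held the full element and 5 the short form. The CArG box was in 0 of the 9 genes with a window (1.62% of all genes), as were the Egr letters GCGTGGGCG (0.622%) and the glucocorticoid response element, a palindrome (0.0111%). The AP-1 letters TGAGTCA were in 1 of the 4 windows of Csrnp1, at 2 places (4.46% of all windows), and the TATA letters TATAAA were 32 to 27 bases upstream of Apold1 (12.4%). These are matches of letters in a short window and say nothing of binding in these animals.

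The values are RPKM, reads per kilobase of gene corrected for the size of the library. Levels of different genes compare only as far as the gene lengths used hold, and the annotation behind those lengths is not named. Depth, recovered from the spacing of low values, lay between 28.4 and 46.9 M reads per library, with a median of 34.5 M. Actl6b checked the genotype labels: it stood at 28.3 ± 1.47 RPKM in trained and 30.0 ± 1.44 in home cage heterozygotes, against 50.8 ± 2.65 in trained and 51.3 ± 1.26 in home cage wild-type mice (SD, n = 6). Neuronal marker genes were high in every library, with a mean log2 value between 7.88 and 8.03. Choroid plexus markers stood apart in 6 libraries, where their mean log2 value was 3.31 or more. These were 2 trained and 2 home cage heterozygotes, 1 trained and 1 home cage wild-type mouse. Home cage heterozygote 2415 had the lowest mean of the hippocampal subfield markers, 4.38, and trained wild-type mouse 2421 followed at 4.49. By Ddx3y and Xist each group held 3 males and 3 females, except the home cage heterozygotes with 5 males and 1 female. The tissue is a mixture of cells, so fewer cells of a type and less RNA per cell cannot be told apart.

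Training raised 7 of the 10 genes in Baf53b+/- mice and 7 of 10 in wild type, and all 10 in the average over genotypes. The genes were chosen with earlier results of these data known, so the counts are not independent of that choice. The same test called 1.03% of the 12399 genes tested in heterozygotes (0.887% higher, 0.145% lower), 1.08% in wild type (0.96% higher, 0.121% lower) and 4.17% in the average (3.26% higher, 0.911% lower). The test was limma on log2(RPKM + 0.5) with a Benjamini-Hochberg adjusted p under 0.05, and differences on that scale understate the change of genes with low RPKM. Csrnp1, Sertad1, Trib1, Midn, Arl4d and Apold1 rose in each genotype, Arl5b in heterozygotes and Coq10b in wild type, while Rasl11a and Fbxo33 passed in neither genotype alone. The median difference of the 10 genes was 0.42 in heterozygotes and 0.40 in wild type, beside -0.0014 and 0.011 over all genes tested. Apold1 passed the filter at a mean of 1 RPKM through its trained animals, so its part in these counts is not independent of the change. For Csrnp1, Midn, Arl4d, Sertad1, Apold1 and Trib1, no home cage animal of the 12 reached the lowest of the 12 trained animals, as for 47 of the 12399 genes (0.379%). Within a genotype, 7 of the 10 genes separated all 6 trained animals from all 6 home cage animals in heterozygotes (1.0% of all genes) and 7 in wild type (1.08%). Without the 6 choroid plexus-rich libraries 6 of the 10 rose in heterozygotes, 7 in wild type and 9 in the average. Without these and home cage heterozygote 2415 the counts were 3, 8 and 9. Leaving out animals changes the calls of all genes, and the share of all genes called in these fits is not reported here. These counts are therefore no result about the 10 genes alone.

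**Figure D1:**
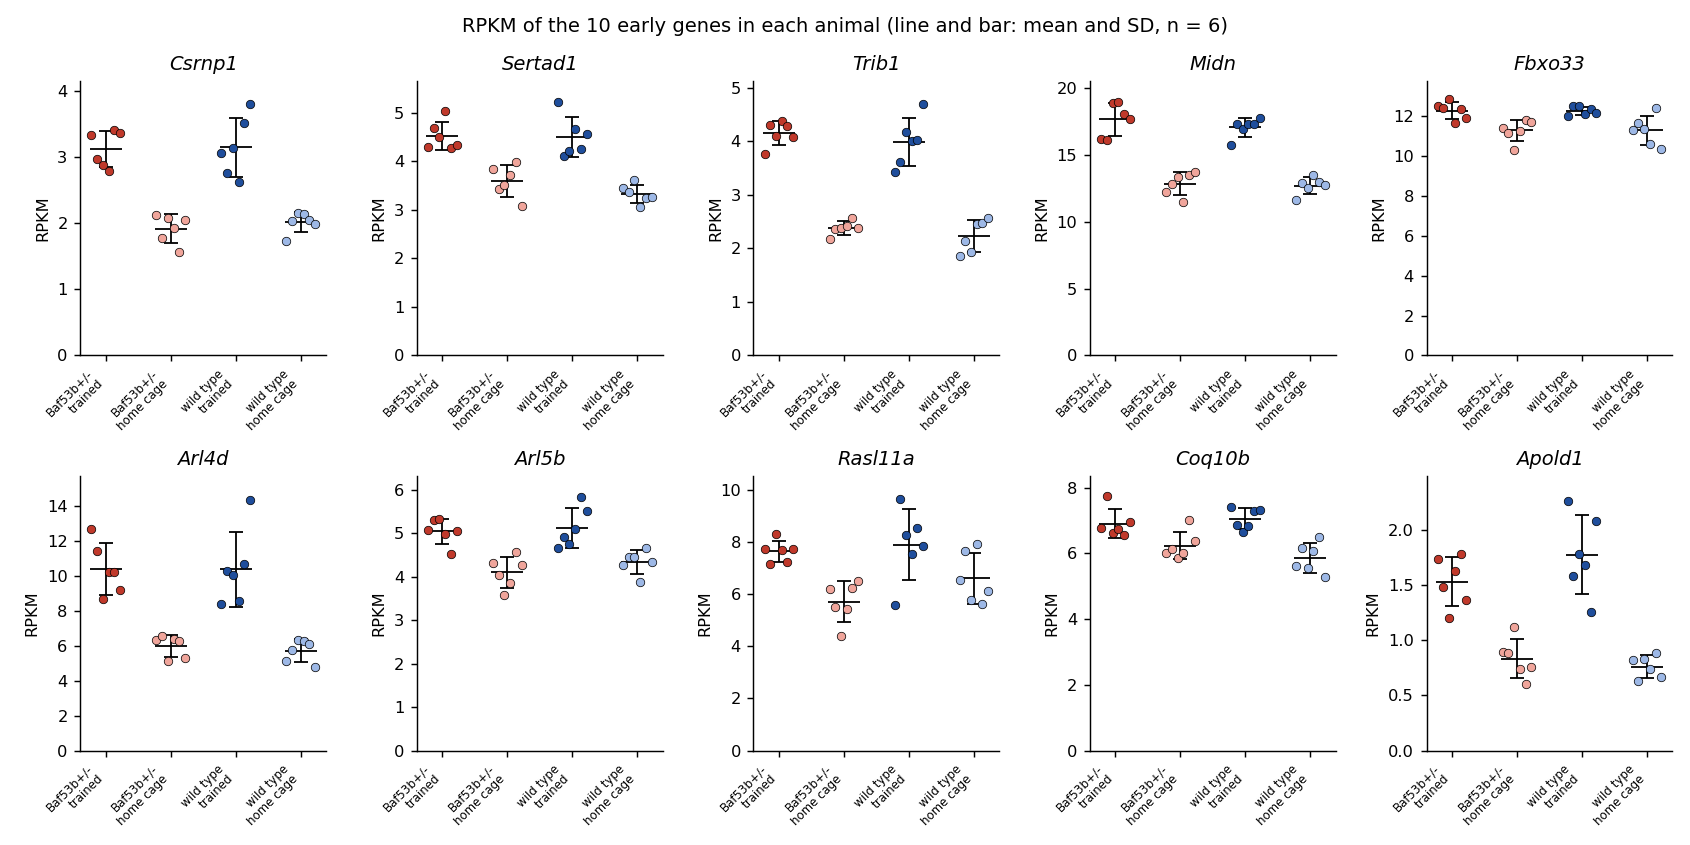
RPKM (vertical axes, from 0) of each of the 10 genes in every animal, by group; the line and bar are the mean and SD (n = 6). Trained animals lie above home cage animals without overlap in both genotypes for Csrnp1, Sertad1, Trib1, Midn, Arl4d and Apold1, and the groups overlap in at least 1 genotype for the other 4 genes.

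Among the genes for nuclear regulators, Csrnp1 (chromosome 9, 119880284 to 119893776, mm9) ran from 2.80 to 3.42 RPKM with a median of 3.16 in trained heterozygotes, against 1.57 to 2.13 with a median of 1.99 in home cage heterozygotes. In wild type it ran from 2.62 to 3.81 RPKM with a median of 3.10 after training, against 1.74 to 2.16 with a median of 2.04 in the home cage. The lowest trained animal of each genotype was above the highest home cage animal, and trained wild-type mouse 2436 had the highest value. Csrnp1 rose by a log2 difference of 0.58 ± 0.07 in heterozygotes (SE; limma adjusted p = 3.01e-05) and 0.53 ± 0.07 in wild type (adjusted p = 9.47e-05), and the means stood 1.63-fold and 1.56-fold above the home cage. The library kit keeps no strand, and in a later mouse annotation (GENCODE M21) Csrnp1 lies inside the span of Cx3cr1, a microglial receptor gene on the same strand, and overlaps 1700019L13Rik on the other. Reads cannot be told apart where exons of such genes overlap, and overlap of exons was not examined here. Cx3cr1 itself stood at 14.4 ± 0.873 and 15.8 ± 0.768 RPKM in trained and home cage heterozygotes and at 14.5 ± 0.794 and 15.2 ± 0.844 in trained and home cage wild type (SD, n = 6), with log2 differences of -0.13 (adjusted p = 0.252) and -0.07 (adjusted p = 0.598).

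Trib1, whose protein brings substrates to the COP1 ubiquitin ligase, lies on chromosome 15 at 59480209 to 59488654. It ran from 3.77 to 4.37 RPKM with a median of 4.20 in trained heterozygotes, against 2.18 to 2.57 with a median of 2.39 in home cage heterozygotes. Trained wild-type mice had 3.42 to 4.69 RPKM with a median of 4.01, against 1.86 to 2.57 with a median of 2.29 in the home cage. The trained and home cage animals of each genotype were apart, with the trained wild-type mice spread more widely than the trained heterozygotes. Its log2 difference was 0.69 ± 0.07 in heterozygotes (limma adjusted p = 3.46e-07) and 0.71 ± 0.07 in wild type (adjusted p = 1.93e-07), and of the 10 genes it had the smallest adjusted p in each genotype. Over both genotypes the difference was 0.70 ± 0.05 (adjusted p = 2.22e-10).

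Sertad1 acts with E2F factors and the kinase CDK4 in control of the cell cycle, and lies on chromosome 7 at 28271972 to 28275333. Its level was 4.28 to 5.04 RPKM with a median of 4.42 in trained heterozygotes, against 3.08 to 3.99 with a median of 3.61 in the home cage. Wild-type mice had 4.10 to 5.22 RPKM with a median of 4.41 after training, against 3.06 to 3.61 with a median of 3.31 in the home cage. The groups did not overlap in either genotype, though the gaps were narrower than those of Trib1. It rose by 0.30 ± 0.06 in heterozygotes (log2, SE; limma adjusted p = 0.00669) and by 0.38 ± 0.06 in wild type (adjusted p = 2.84e-04). Without the 6 choroid plexus-rich libraries and home cage heterozygote 2415 the difference in heterozygotes was 0.30 (adjusted p = 0.175).

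Midn and Fbxo33, like Trib1 tied to protein breakdown, differed from each other in size of response, though this difference was not tested. Midn (chromosome 10, 79611035 to 79621112) had the highest level of the 10 genes. It ran from 16.1 to 19.0 RPKM with a median of 17.9 in trained heterozygotes, against 11.5 to 13.7 with a median of 13.1 in the home cage. Trained wild-type mice had 15.8 to 17.8 RPKM with a median of 17.3, against 11.6 to 13.5 with a median of 12.8 in the home cage. Trained and home cage animals were well apart in each genotype, and the coefficient of variation within a group was 4.0% to 7.1%. Midn rose by 0.44 ± 0.05 in heterozygotes (log2, SE; limma adjusted p = 1.58e-06) and 0.41 ± 0.05 in wild type (adjusted p = 5.11e-06).

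Fbxo33 (chromosome 12, 60301642 to 60320470) showed the smallest response. Its level was 11.7 to 12.9 RPKM with a median of 12.4 in trained heterozygotes, against 10.3 to 11.8 with a median of 11.3 in the home cage. In wild type it was 12.03 to 12.52 RPKM with a median of 12.3 after training, against 10.3 to 12.4 with a median of 11.4 in the home cage. Trained animals lay in the upper part of the home cage range or above it, with 5 of 6 heterozygotes and 2 of 6 wild-type mice above the highest home cage animal. The log2 difference was 0.12 ± 0.04 in each genotype (limma adjusted p = 0.184 in heterozygotes and adjusted p = 0.16 in wild type), and it passed in the average at 0.12 ± 0.03 (adjusted p = 0.0096). In the average over genotypes it ranked 732 of 12399 by size of difference, the lowest rank of the 10 genes.

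The small GTPase genes also differed in size of response, again without a test of the difference. Arl4d, whose product recruits cytohesins to the plasma membrane, lies on chromosome 11 at 101526855 to 101529146 and has the full cAMP response element shown above. It ran from 8.69 to 12.7 RPKM with a median of 10.2 in trained heterozygotes, against 5.15 to 6.57 with a median of 6.32 in the home cage. Wild-type mice had 8.38 to 14.4 RPKM with a median of 10.2 after training, against 4.81 to 6.33 with a median of 5.95 in the home cage. Trained and home cage animals did not overlap, and the trained animals were spread more widely, with wild-type mouse 2436 the highest. The rise was 0.74 ± 0.11 in heterozygotes (log2, SE; limma adjusted p = 2.09e-04) and 0.79 ± 0.11 in wild type (adjusted p = 6.68e-05). In the average over genotypes Arl4d had a difference of 0.77 ± 0.08, rank 15 of 12399. Without the 7 libraries more than 1 above the median of the choroid plexus markers, the difference in heterozygotes was 0.65 (adjusted p = 0.0637), and without the 6 highest of them and animal 2415 it was 0.58 (adjusted p = 0.2).

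Arl5b, which works in transport at the trans-Golgi, lies on chromosome 2 at 14976989 to 15000818 and, like Arl4d, has the full cAMP response element. Whether the element goes with the size of response was not tested. Its level was 4.53 to 5.33 RPKM with a median of 5.05 in trained heterozygotes, against 3.57 to 4.56 with a median of 4.15 in the home cage. Trained wild-type mice had 4.65 to 5.84 RPKM with a median of 5.01, against 3.87 to 4.66 with a median of 4.39 in the home cage. In each genotype 5 of 6 trained animals were above the highest home cage animal. Arl5b rose in heterozygotes by 0.27 ± 0.06 (log2, SE; limma adjusted p = 0.012). In wild type the difference was 0.22 ± 0.06 (adjusted p = 0.0642), and it passed when home cage heterozygote 2415 (adjusted p = 0.0413) or trained wild-type mouse 2403 (adjusted p = 0.0498) was left out. Without the 6 choroid plexus-rich libraries and 2415 the difference in heterozygotes was 0.31 (adjusted p = 0.0819). The annotated span of Arl5b overlaps Nsun6 on the opposite strand.

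Rasl11a, tied to transcription of ribosomal RNA in the nucleolus, lies on chromosome 5 at 147656647 to 147659302. It ran from 7.15 to 8.30 RPKM with a median of 7.71 in trained heterozygotes, against 4.40 to 6.52 with a median of 5.85 in the home cage. Wild-type mice had 5.57 to 9.66 RPKM with a median of 8.06 after training, against 5.61 to 7.93 with a median of 6.34 in the home cage. Heterozygotes separated without overlap, while trained wild-type mouse 2403 was below every home cage wild-type mouse. The log2 difference was 0.40 ± 0.10 in heterozygotes (SE; limma adjusted p = 0.0619) and 0.23 ± 0.10 in wild type (adjusted p = 0.39), and it passed in the average at 0.32 ± 0.07 (adjusted p = 0.0105). The heterozygote difference passed when trained wild-type mouse 2403 (adjusted p = 0.0152) or 2407 (adjusted p = 0.0444) was left out, with the difference itself at 0.40 in both fits. The wild-type difference was 0.10 without the 7 libraries more than 1 above the median of the choroid plexus markers (adjusted p = 0.737) and 0.33 without trained wild-type mouse 2403 (adjusted p = 0.0975). The average did not pass without the 6 highest of those 7 (0.33, adjusted p = 0.0597).

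Coq10b, which encodes a mitochondrial lipid-binding protein whose yeast counterpart is needed for coenzyme Q to work in the respiratory chain, lies on chromosome 1 at 55109614 to 55129546. Its level was 6.56 to 7.76 RPKM with a median of 6.76 in trained heterozygotes, against 5.86 to 7.02 with a median of 6.08 in the home cage. Trained wild-type mice had 6.64 to 7.42 RPKM with a median of 7.07, against 5.29 to 6.51 with a median of 5.85 in the home cage. Wild-type groups did not overlap, while 1 trained heterozygote, animal 2410, exceeded the highest home cage heterozygote. Coq10b rose in wild type by 0.25 ± 0.05 (log2, SE; limma adjusted p = 0.00916), and the difference in heterozygotes was 0.13 ± 0.05 (adjusted p = 0.281), or 0.21 without the 6 choroid plexus-rich libraries (adjusted p = 0.141). The average difference was 0.19 ± 0.03 (adjusted p = 0.00125). In GENCODE M21 Coq10b overlaps E330011M16Rik on the opposite strand and the pseudogene Gm17971.

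Apold1 lies on chromosome 6 at 134932019 to 134936854 and had the lowest level of the 10 genes, with about 77 to 278 reads per library. These reads are not counts. They were estimated from RPKM, the recovered depth and the longest coding transcript of Apold1 in GENCODE M21 (3567 bases). Its RPKM ranges follow. It ran from 1.20 to 1.78 RPKM with a median of 1.55 in trained heterozygotes, against 0.606 to 1.12 with a median of 0.824 in the home cage. Wild-type mice had 1.26 to 2.26 RPKM with a median of 1.73 after training, against 0.631 to 0.885 with a median of 0.780 in the home cage. The means stood 1.84-fold above the home cage in heterozygotes and 2.33-fold above it in wild type, the largest ratios of the 10 genes. On the log2(RPKM + 0.5) scale the rise was 0.61 ± 0.10 in heterozygotes (SE; limma adjusted p = 0.00112) and 0.84 ± 0.10 in wild type (adjusted p = 9.86e-06). Without the 6 choroid plexus-rich libraries the difference in heterozygotes was 0.45 (adjusted p = 0.173). Among 20 markers of endothelial and mural cells the difference was above 0 for 16 in heterozygotes and for 13 in wild type, with medians of 0.06 and 0.05, and 0 passed in either (2 and 0 at an unadjusted p under 0.05, beside 11% and 11.1% of all genes). Their mean log2 value ran from 2.83 to 2.97 in trained and 2.67 to 2.93 in home cage heterozygotes, and from 2.63 to 2.85 in trained and 2.60 to 2.86 in home cage wild type. Over the 20 the difference ran from -0.05 to 0.43 in heterozygotes and from -0.11 to 0.12 in wild type. The 2 with a limma unadjusted p under 0.05 in heterozygotes were Acta2, at 0.43, and Cdh5, at 0.16. In wild type these differed by 0.12 and 0.08. Cldn5, a tight junction gene of endothelium, differed by 0.05 in heterozygotes and -0.11 in wild type. Pecam1, an endothelial adhesion gene, differed by 0.10 in each. With the endothelial and mural mean as a covariate, 8 of the 10 genes rose in heterozygotes, 7 in wild type and 10 in the average. The share of all genes called in that fit is not reported here. The part of vascular cells in the rise of Apold1 was not tested.

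By mean RPKM over all 24 animals the genes stood in the order Apold1 (1.23), Csrnp1 (2.56), Trib1 (3.19), Sertad1 (3.99), Arl5b (4.65), Coq10b (6.52), Rasl11a (6.97), Arl4d (8.14), Fbxo33 (11.8) and Midn (15.1). In home cage wild-type mice Coq10b, Arl4d and Rasl11a averaged 5.87 ± 0.457, 5.74 ± 0.637 and 6.61 ± 0.970 RPKM (SD, n = 6) and did not differ beyond their spread. Trib1 and Csrnp1 were likewise close there, at 2.24 ± 0.299 and 2.02 ± 0.152 RPKM. After training Arl4d stood above Rasl11a in mean level, with 10.4 ± 1.48 against 7.64 ± 0.413 RPKM in heterozygotes and 10.4 ± 2.16 against 7.90 ± 1.36 in wild type.

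The design also asks whether the response to training differs with genotype. It was not called different for any of the 10 genes, and 0% of all 12399 genes passed. At an unadjusted p under 0.05 the count was also 0 of 10, beside 2.49% of all genes tested, a share at which a count of 0 among 10 genes is near the background. Response differences (heterozygote minus wild type) ran from -0.23 for Apold1 to 0.16 for Rasl11a on the log2 scale, and both sizes moved with the scaling or with the libraries left out. The difference of Apold1 was -0.44 without the 7 libraries more than 1 above the median of the choroid plexus markers, -0.42 without the 6 highest of them, -0.35 without those 6 and animal 2415, and -0.12 after quantile normalization. That of Rasl11a was 0.39 without the same 7 libraries, 0.31 without the 6 highest, 0.10 without home cage heterozygote 2415 and 0.07 without trained wild-type mouse 2403. The lowest adjusted p of either over all alternatives was 0.82. For Apold1 the 95% interval was -0.52 to 0.06 (limma adjusted p = 0.985), for Coq10b -0.26 to 0.03 around -0.11 (adjusted p = 0.985), and for Rasl11a -0.14 to 0.46 (adjusted p = 0.985). A p that misses the threshold does not show that the responses are equal, and for Apold1 and Rasl11a the intervals leave room for differences above 0.4.

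Genotype comparisons within a condition called 1 gene each, or 0.00807% of the genes tested, and 0 of the 10 early genes. In both conditions the gene called was Actl6b itself (limma adjusted p = 2.26e-13 in trained and 1.53e-12 in home cage animals). At an unadjusted p under 0.05 the count was again 0 of 10 in each condition, beside 3.69% of all genes in trained and 3.52% in home cage animals, so it too is near the background. Among trained animals the smallest p was that of Apold1, at 1.53 ± 0.225 RPKM in heterozygotes and 1.77 ± 0.357 in wild type (SD, n = 6; log2 difference -0.16, 95% interval -0.36 to 0.05, limma adjusted p = 0.993). Its difference was -0.26 without the 7 choroid plexus-rich libraries and -0.10 without trained wild-type mouse 2403. In the home cage it was that of Rasl11a, at 5.72 ± 0.780 RPKM in heterozygotes and 6.61 ± 0.970 in wild type (log2 difference -0.19, 95% interval -0.40 to 0.02, adjusted p = 0.999), with a difference of -0.31 without the 7 or the 6 choroid plexus-rich libraries and -0.13 without home cage heterozygote 2415. Comparisons that share a group of animals are not independent: the interaction of Rasl11a and its home cage difference both use the home cage animals.

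**Figure D2:**
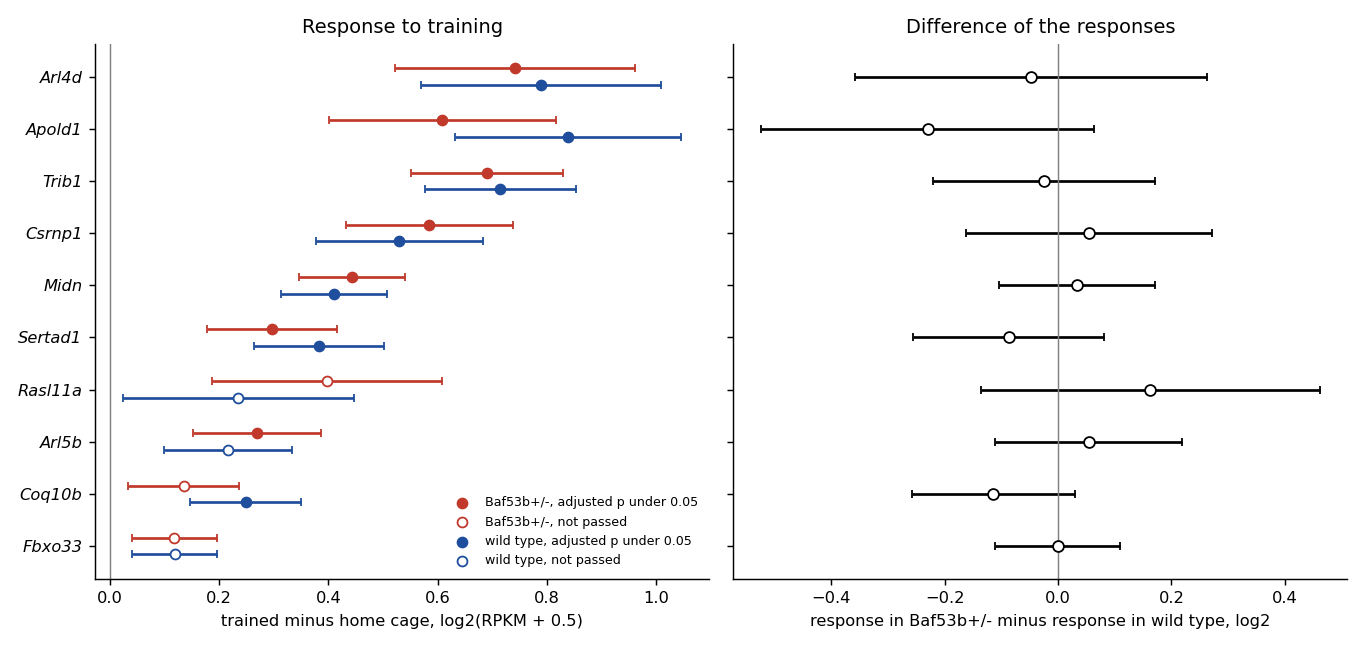
Left, log2 difference (trained minus home cage) with its 95% interval for each gene, Baf53b+/- above wild type, filled where the adjusted p was under 0.05; right, the response in Baf53b+/- minus that in wild type. The left values run from 0.12 for Fbxo33 to 0.84 for Apold1 in wild type, and all 10 intervals on the right include 0.

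Family relatives of the 10 genes were compared from a list of 13, of which 11 were tested. This list too was made with earlier results of these data known. Of the 11, 0 rose in heterozygotes and 1, Csrnp2, rose in wild type and in the average, with 0 lower. Their median differences were -0.0046 in heterozygotes and 0.04 in wild type, beside the -0.0014 and 0.011 of all genes. Csrnp2, which encodes another nuclear protein of the Csrnp family, stood at 5.84 ± 0.299 RPKM in trained and 5.20 ± 0.394 in home cage heterozygotes, and at 6.20 ± 0.408 in trained and 5.30 ± 0.281 in home cage wild-type mice (SD, n = 6). Its log2 difference was 0.16 ± 0.05 in heterozygotes (SE; limma adjusted p = 0.17), 0.21 ± 0.05 in wild type (adjusted p = 0.031) and 0.18 ± 0.03 in the average (adjusted p = 0.00181). Csrnp3, the remaining member of that family, differed by -0.03 in the average (adjusted p = 0.678).

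Among relatives of Arl4d, also Arf-like GTPases, Arl4a differed by -0.05 (limma adjusted p = 0.749) and Arl4c by 0.08 (adjusted p = 0.541) in the average over genotypes. Arl4c averaged 10.2 ± 1.22 RPKM in trained and 10.3 ± 1.44 in home cage heterozygotes, and 11.1 ± 1.18 in trained and 9.83 ± 0.851 in home cage wild-type mice (SD, n = 6). Arl5a, the closest relative of Arl5b, differed by -0.0084 (adjusted p = 0.921), and its level, 14.0 ± 0.730 RPKM in trained heterozygotes and 14.5 ± 0.644 in trained wild type, was higher than that of Arl5b. Coq10a differed by -0.04 (adjusted p = 0.556) at 9.79 ± 0.318 and 10.1 ± 0.565 RPKM in trained heterozygotes and trained wild type.

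In the Sertad family, Sertad2, Sertad3 and Sertad4 differed by 0.07 (limma adjusted p = 0.273), 0.15 (adjusted p = 0.132) and -0.12 (adjusted p = 0.5) in the average. Trib2, a pseudokinase like Trib1, differed by 0.12 (adjusted p = 0.1) at 9.85 ± 0.785 RPKM in trained and 8.82 ± 0.518 in home cage heterozygotes. Rasl11b had the highest level of the relatives, 35.6 ± 3.40 RPKM in trained and 32.8 ± 1.13 in home cage heterozygotes, and differed by 0.15 (adjusted p = 0.0526). Arl5c and Trib3 lay below the filter at 1 RPKM, with group means of 0.531 to 0.741 and 0.105 to 0.168 RPKM, and were not tested. Differences between a gene and its relatives were not tested as such.

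**Figure D3:**
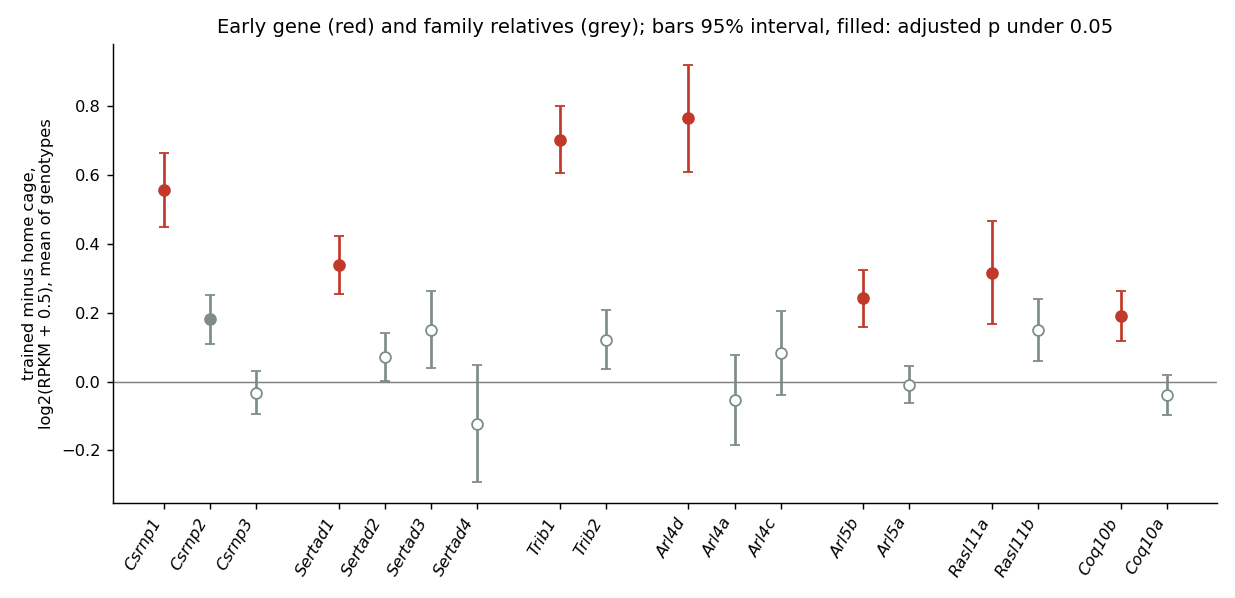
Log2 difference (trained minus home cage, mean of the genotypes) with its 95% interval for 7 of the early genes (red) and their 11 tested family relatives (grey), grouped by family; filled symbols passed at an adjusted p under 0.05. The early genes run from 0.19 for Coq10b to 0.77 for Arl4d, and Csrnp2 at 0.18 is the relative that passed.

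A list of 63 better known early genes, also chosen with earlier results of these data known, gives the scale of these responses. Of its 58 tested genes, 30 rose in heterozygotes, 28 in wild type and 39 in the average, with 0 lower in each, and median differences were 0.37, 0.32 and 0.33. Fos averaged 12.6 ± 1.67 RPKM in trained and 1.86 ± 0.440 in home cage heterozygotes, and 14.3 ± 4.58 in trained and 1.89 ± 0.687 in home cage wild type (SD, n = 6). In the average its log2 difference was 2.56, while Arc reached 1.94, Npas4 1.38 and Egr1 1.23. Of the 58 genes, 12 had a larger difference than Arl4d and 12 than Apold1, 14 than Trib1, 19 than Csrnp1 and 25 than Midn. The count was 29 for both Sertad1 and Rasl11a, 35 for Arl5b, 39 for Coq10b and 45 for Fbxo33. The known early genes nearest to any of the 10 in size of response were Jun, Zfp36, Inhba and Cebpb, all at 0.12 beside Fbxo33, and unlike Fbxo33 none of them passed (limma adjusted p = 0.319 for Jun, 0.326 for Zfp36, 0.437 for Inhba and 0.578 for Cebpb). Jun is an AP-1 transcription factor, Zfp36 an mRNA decay factor, Inhba a subunit of activin and Cebpb a leucine zipper factor.

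**Figure D4:**
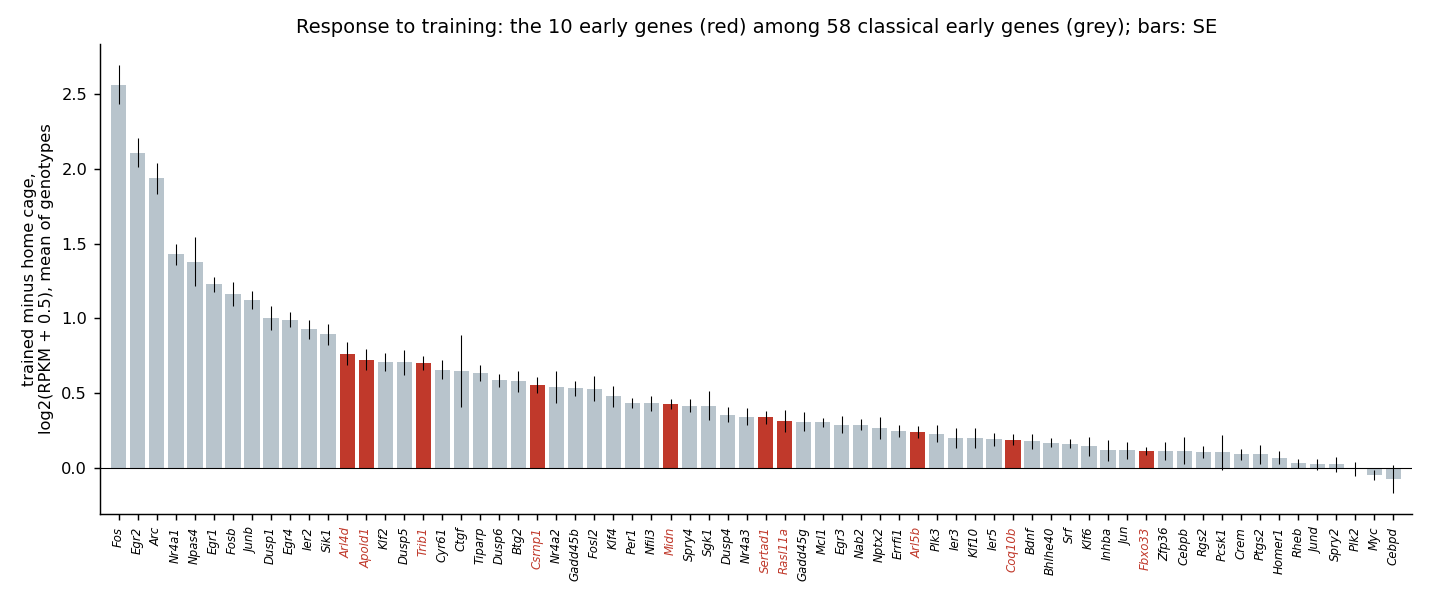
Log2 difference (trained minus home cage, mean of the genotypes, bars from 0 with the SE) of the 10 early genes (red) among the 58 tested better known early genes (grey), sorted by size. Arl4d, Apold1 and Trib1 at 0.70 to 0.77 follow genes such as Fos at 2.56 and Arc at 1.94, and Fbxo33 at 0.12 lies near the low end.

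Animals of a group also varied among themselves, and for this description each group mean was subtracted from the log2 values of the 24 animals. Over the 45 pairs of the 10 genes Pearson's r had a median of 0.11 and ran from -0.65 to 0.55, with 27 pairs above 0. The highest values were those of Fbxo33 with Arl5b (0.55), Midn with Trib1 (0.51) and Fbxo33 with Coq10b (0.47), and the lowest those of Apold1 with Rasl11a (-0.65) and Apold1 with Arl5b (-0.54). All such values share the library and its scaling, and they are given without a test. Among values of the 10 genes with Fos, Arc, Egr1 and Npas4, the highest were Midn with Egr1 (0.59) and Arl4d with Arc (0.51). The lowest was Sertad1 with Npas4 (-0.345), and Midn with Fos, Arc and Npas4 was near 0 (0.062, 0.024 and 0). Marker means moved with some of the genes, and only the values largest in size are given. The hippocampal subfield mean had an r of 0.60 with Arl5b and -0.59 with Apold1. The choroid plexus mean had an r of 0.59 with Fbxo33, and the neuronal mean an r of -0.54 with Arl5b. The part of dissection in these values was not tested.

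**Figure D5:**
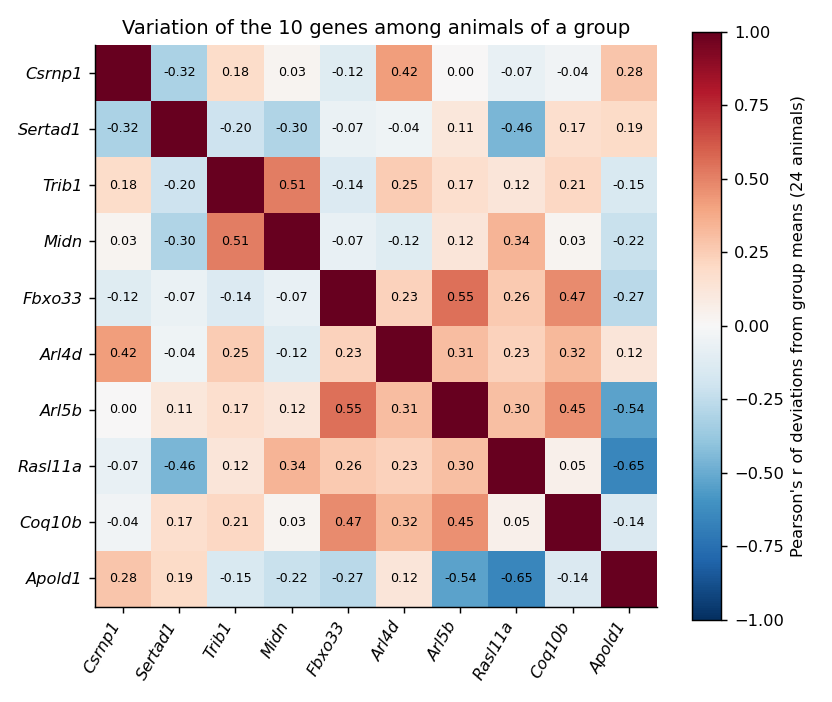
Pearson's r between the 10 early genes over 24 animals after each group mean was subtracted, from blue (-1) to red (1). The block of Fbxo33, Arl5b and Coq10b is positive at 0.45 to 0.55, and Apold1 is negative with Arl5b (-0.54) and Rasl11a (-0.65).

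Across all tested genes, those most like each early gene in this within-group variation had an r of 0.67 to 0.81 over the 24 animals. Among them were Clcc1 for Csrnp1 (0.68), Erlin1 for Sertad1 (0.79) and Dusp3 for Trib1 (0.74). For Midn it was Cercam (0.67), and for Fbxo33 Commd10 (0.81) with Ube2g1 (0.80). Arl4d varied most like Rnf138 (0.79), Pim3 (0.78) and Ddit4 (0.77), and Arl5b most like Pik3cb (0.81). Rasl11a was nearest to Epdr1 (0.745), Homer3 (0.715) and Ptgs2 (0.705), Coq10b to Khdrbs1 (0.74) and Apold1 to Cdh18 (0.76). These are the highest values among 12399 genes, and no test was made of them.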

How the data were processed

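RNA from bilateral dorsal hippocampus was made into TruSeq RNA v2 libraries, which keep no strand, and read for 50 cycles single-end on an Illumina HiSeq, per the labels' protocols. Libraries were sequenced in 4 multiplexes, but the sources used here do not say which animal was in which. Per the submitters' processing notes, the tools included Bowtie 0.12.8 and CASAVA 1.8.2 and the build was mm9. RPKM per gene and animal, as deposited by the authors, were the starting point, and the sources used here name neither their annotation nor their read totals. Each column's RPKM summed to between 284379 and 294605.

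Depth was recovered from RPKM steps in 624 single-exon genes (values of at most 30 reads), where 71.6% to 78.8% of values came within 0.05 of whole reads (at most 6.8% for the median total tried). As RPKM are not counts, log2(RPKM + 0.5) was tested with limma 3.58.1 in R 4.3.3. Genes averaging 1 RPKM or more (12399 genes, 99.51% of the RPKM) entered a single model of the 4 groups, with trend and robust empirical Bayes, and p-values were Benjamini-Hochberg adjusted over all of them. Signs are trained minus home cage and Baf53b+/- minus wild type. The fit was tested on simulated data.

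The 10 genes and all lists were chosen with earlier results of these data known. The 10 genes and their relatives are named whatever their p. Of the better known early genes, Fos, Arc, Egr1, Npas4 and the 4 nearest in response to any of the 10 are named. For each of the 10, the 3 genes with the highest within-group r could be named. Marker lists covered endothelial and mural cells, choroid plexus, neurons, astrocytes, oligodendrocytes, microglia and hippocampal subfields. None of these 7 lists had a gene called by limma in any training comparison. Of 4 blood genes 1 was found. Promoter windows came from RefSeq (GRCm38.p6), and coordinates of the 2 builds were not converted.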

Additional observations from a re-analysis of the deposited data

Results flagged for a closer look

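Within the 40 sets of 6 animals formed by the 10 genes and 4 groups, 1 animal stood apart from the rest of its group, where chance alone flags about 1 set in 20. Coq10b in trained heterozygote 2410 was 7.76 RPKM, the highest value of its group, and its gap to the nearest animal was 0.68 of the range of the group (critical value 0.625).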

How the results depend on the processing

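The count of the 10 genes called was recomputed under each alternative. Leaving out each library in turn gave 7 to 8 genes in heterozygotes, 7 to 8 in wild type and 10 in every fit of the average. Over all genes the same fits called 96 to 142 in heterozygotes, 92 to 160 in wild type and 415 to 541 in the average. With all libraries these numbers were 128, 134 and 517. The interaction and both genotype comparisons gave 0 of the 10 in every fit. Over all genes they called 0 in the interaction, 1 to 2 in trained and 1 in home cage animals. With a filter at a mean of 5 RPKM, which 5 of the 10 genes pass, 2 were called in heterozygotes, 3 in wild type and 5 in the average. Without the 6 choroid plexus-rich libraries and home cage heterozygote 2415, a choice made after seeing the data, 3 were called in heterozygotes. The other alternatives covered the pseudocount, a looser filter, median, trimmed mean and quantile scaling, a fit of the compared groups alone, plain empirical Bayes, covariates for sex, choroid plexus and endothelial markers, and 2 sets of choroid plexus-rich libraries left out. All of them gave 5 to 8 genes in heterozygotes, 7 in wild type and 9 to 10 in the average. Calls over all genes are reported here only for the fits that left out a single library.

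Over the training comparisons, 1128 of 1145 single-gene values kept their side of the threshold, 10 lost it, 7 gained it and 0 changed direction, and the lowest difference was 0.09. In the interaction and genotype comparisons 0 of 1145 values passed, and 82, none larger than 0.08 in size, changed sign. No scaling moved the median of all genes by more than 0.0204 on the log2 scale. The cause of the lost calls was not tested. Apold1 had the lowest estimate of reads of the 10 genes, about 77 in its lowest library, so on that estimate depth limits it most. No paired analysis was possible because the groups share no replicate numbers.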
